A study of Mus musculus with 27 samples.

Results

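The response of mouse bone marrow-derived macrophages (BMDM) to the sterol 24(S)-saringosterol was set against the response of hepatocytes to the same sterol. The comparison takes 12 of the 27 libraries of the series, chosen by their labels. They fall into 4 groups of 3 libraries, namely saringosterol-treated BMDM (Sari_BMDM), vehicle-treated BMDM (Veh_BMDM), saringosterol-treated hepatocytes (Sari_Hep) and vehicle-treated hepatocytes (Veh_Hep). Saringosterol was given at 10 µM for 24 h and the vehicle was ethanol, and all 4 groups were serum-free during treatment. The macrophages had been grown out of bone marrow with M-CSF, the growth factor of macrophages, and the hepatocytes had been plated on collagen. BMDM were treated in DMEM/F12 with fatty-acid-free albumin, M-CSF and a supplement of insulin, selenium and transferrin, and hepatocytes in Williams' E medium without these additions, so cell type and treatment medium cannot be told apart in any difference described here. The labels give no strain, sex or age, and the origin of the 3 replicates (separate animals, separate cultures or repeat wells) is not stated, so p-values measure only the spread between these libraries. The title of the series asks whether the sterol acts on lipid and inflammatory genes in a way that depends on the cell.

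Libraries held 30295862 to 40878942 counts in genes, and 3 counts, the most that a count of 0 allows, were 0.0734 to 0.099 CPM, which is the count of a gene relative to library size, scaled by TMM over the 12 libraries throughout. This floor covers counting error only, because PCR copies were not marked by molecular identifiers. The defining markers separated the cells. The 15 macrophage markers summed to 31700 to 33800 CPM in Sari_BMDM and 39100 to 42300 CPM in Veh_BMDM, against 297 to 315 CPM in Sari_Hep and 294 to 327 CPM in Veh_Hep. The 12 hepatocyte markers summed to 24700 to 26100 CPM in Sari_Hep and 25100 to 27500 CPM in Veh_Hep. In BMDM the hepatocyte sum was 1100 to 1680 CPM with saringosterol and 1650 to 1930 CPM with vehicle, nearly all of it the transferrin gene Trf, and Ttr, Apoa1 and Fgb were at 0 in all 6 libraries. Some liver genes were low in these cultured hepatocytes. Cyp7a1, the rate-limiting enzyme of bile acid synthesis, reached no more than 0.0555 CPM in any Sari_Hep library and 0.0464 CPM in any Veh_Hep library, and the gluconeogenic enzyme Pck1 averaged 2.36 and 2.99 CPM in these groups. Markers of endothelial cells summed to 59.8 to 70 CPM in Sari_BMDM and 34.1 to 36.9 CPM in Veh_BMDM, and of neutrophils to 49.7 to 63.7 and 66.6 to 76.3 CPM, while in hepatocytes both were at most 3.57 CPM. Markers of cholangiocytes, the cells of bile ducts, summed to 147 to 163 CPM in Sari_Hep and 155 to 165 CPM in Veh_Hep. In BMDM they were at most 1.62 CPM. Which cells of the hepatocyte cultures carried them was not tested. Of the macrophage markers, 5 of 15 fell in BMDM under saringosterol, beside 5.12% of all genes. Csf1r, the receptor of M-CSF, was among the 5, at 1920, 1810 and 1840 CPM in Sari_BMDM against 2310, 2470 and 2800 CPM in Veh_BMDM. The part of this shift in the results below was not tested, and in bulk RNA fewer cells of a type and less RNA per cell cannot be told apart.

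Cells control sterol through a pair of opposed systems. Liver X receptors (LXR) are nuclear receptors that bind oxidised sterols and some plant sterols and switch on genes for sterol export and lipoprotein handling, together with Srebf1, the master regulator of fatty acid synthesis. SREBP2, the product of Srebf2, is released from the endoplasmic reticulum when membranes are poor in sterol and switches on cholesterol synthesis and uptake, so sterol that reaches this membrane is known to lower those genes. Macrophages use the first system to unload cholesterol taken up with engulfed cells, and hepatocytes use both to balance lipoprotein output, bile acid synthesis and uptake.

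A few promoters of the sterol genes hold the letters that these factors are known to read. Windows are shown for Abca1, Srebf1 and Hmgcs1, whose interactions were called, and for Fasn, whose interaction missed the threshold. Stretches of the 250 bases before and 50 bases after each gene start were taken from RefSeq on GRCm38.p6. Capitals mark the letters of an LXR response element of the DR4 type, searched as 2 copies of GGTNA with 5 bases between them on both strands and here lying on the opposite strand of the printed one, and in Hmgcs1 the core of a sterol regulatory element, searched as TCACNCCAC on both strands.
Abca1: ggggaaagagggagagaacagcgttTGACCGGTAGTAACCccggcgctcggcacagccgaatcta
Srebf1: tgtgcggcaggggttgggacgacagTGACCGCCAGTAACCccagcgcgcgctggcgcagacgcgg
Fasn: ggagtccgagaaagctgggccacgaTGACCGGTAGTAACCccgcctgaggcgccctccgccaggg
Hmgcs1: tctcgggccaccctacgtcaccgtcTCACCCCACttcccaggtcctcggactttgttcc
The windows are chr4:53159923-53159987 (minus strand), chr11:60210614-60210678 (minus strand), chr11:120824733-120824797 (minus strand) and chr13:119690189-119690247 (plus strand). The DR4 letters lay 67 to 53 bases before the start of Abca1, 182 to 168 before an internal start of Srebf1, which lies inside the gene's span and is not its outermost start, and 225 to 211 before that of Fasn, and the sterol element 137 to 129 bases before that of Hmgcs1. The DR4 letters were present in 236 of 32851 promoters of this length (0.718%) and the sterol element letters in 408 (1.24%). Of the 12 LXR targets with a promoter in the table, 2 held the DR4 letters (Abca1 and Srebf1), and of 15 fatty acid synthesis genes 3 did (Fasn, Acsl3 and Elovl1). Of 16 cholesterol synthesis genes, Hmgcs1 alone held the sterol element letters. A match describes these letters and does not show that a factor binds there.

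The response to saringosterol differed between the cell types for a minority of genes. The difference of responses, called the interaction here, is the log2 change from vehicle to saringosterol in BMDM minus that in hepatocytes, so a positive value means a larger rise or a smaller fall in BMDM. With the edgeR quasi-likelihood test at a Benjamini-Hochberg adjusted p under 0.05, the interaction was called for 1255 of 17525 genes (7.16%), of which 837 (4.78%) were positive and 418 (2.39%) negative. Scaling moved this split. With scaling factors computed within each cell type it was 620 positive and 461 negative, and with plain library totals 468 and 489, while the median interaction over all genes was 0.024, -0.009 and -0.037 in turn. Within BMDM 1643 of 15416 genes were called (10.7%; 853 rose and 790 fell), and within hepatocytes 307 of 16098 (1.91%; 143 rose and 164 fell). Whether the 2 counts differ by chance cannot be read from them, because the spread differed, with a common biological coefficient of variation of 0.113 in BMDM and 0.065 in hepatocytes.

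Of the 1255 genes, 465 rose in BMDM and were not called in hepatocytes, and 208 fell in BMDM and were not called in hepatocytes. Another 48 fell and 31 rose in hepatocytes without a call in BMDM. A further 298 positive and 97 negative interactions were called although neither cell type alone had a call, with both tested. Opposite calls were rarer, with 42 genes that fell in BMDM and rose in hepatocytes and 9 that did the reverse. The 2 cell types shared 86 called genes, which were 6.04% of the 1425 genes called in BMDM and 33.9% of the 254 called in hepatocytes among the 13603 genes tested in both. Of those tested in both, 1205 (8.86%) had a called interaction. Of the shared genes 35 moved the same way. Without replicate 3 of Sari_BMDM, which stood apart in interferon genes as described below, 1186 of 18095 genes were called (6.55%), 615 positive and 571 negative, and 892 genes were called in the same direction both ways. The count fell most without Veh_BMDM replicate 2 (506 genes), Sari_Hep replicate 2 (537) or Veh_BMDM replicate 1 (547), and 381 genes were called in all 12 fits that left out a library. No called gene changed sign in any of those 12 fits.

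**Figure D1:**
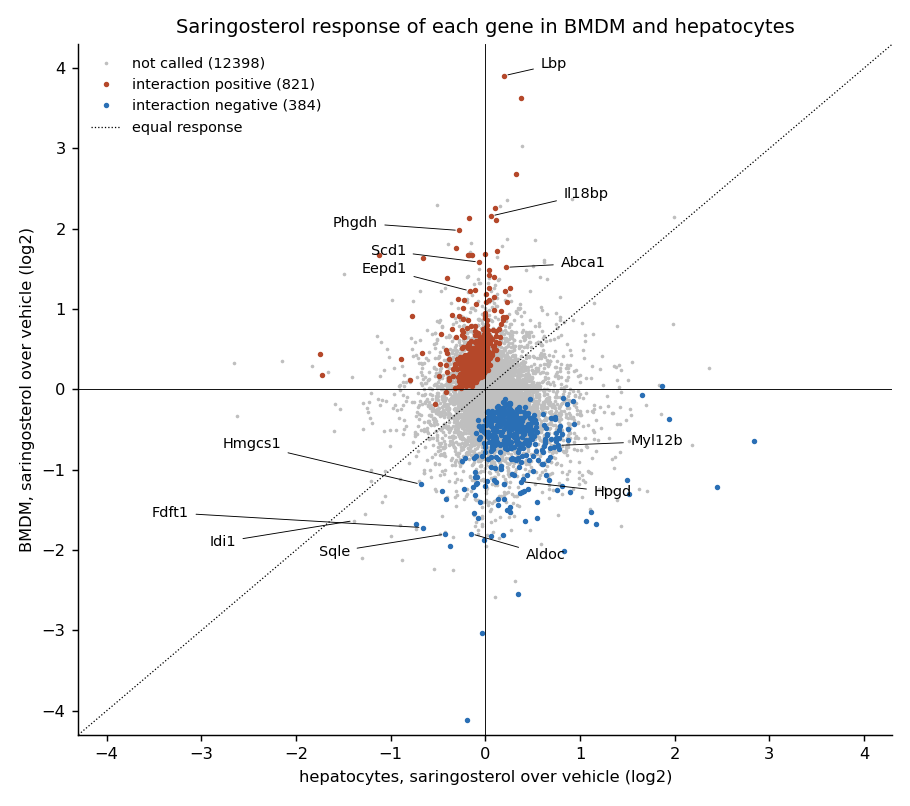
Log2 change with saringosterol over vehicle in BMDM (vertical) and hepatocytes (horizontal) for the 13603 genes tested in both cell types, with called interactions in colour and the dotted line marking an equal response. The 821 positive and 384 negative calls lie on either side of that line, many of them near the vertical axis, and Fdft1 and Hmgcs1 lie in the quadrant where both cell types fell.

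LXR targets rose in BMDM, and none passed the test in hepatocytes. Of the 13 listed targets tested in both cell types, 9 had a positive interaction call and 0 a negative one, beside 6.04% and 2.82% of all genes tested in both. The median interaction of the list was 0.70, against 0.045 for all genes tested in both, and the count was 9 without Sari_BMDM replicate 3 as well (3.4% of all genes were called positive in that fit). In BMDM 11 of 13 targets rose (5.53% of all genes), with a median log2 change of 0.86. In hepatocytes 0 of 16 passed the test in either direction (0.888% of all genes rose there and 1.02% fell), with a median log2 change of -0.09. At an unadjusted p under 0.05, 6 of the 16 would pass there, and DESeq2 called 0 of 16 as well.

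Abca1 (chromosome 4, 53030787 to 53159895) carries cholesterol and phospholipid out of the cell onto apolipoproteins. It stood at 1870, 1940 and 1780 CPM in the 3 Sari_BMDM libraries and at 581, 664 and 699 CPM in the Veh_BMDM libraries. In hepatocytes it stood at 51.8, 61.2 and 68.7 CPM with saringosterol and at 49.1, 54.9 and 55.7 CPM with vehicle. All Sari_BMDM libraries lay above all Veh_BMDM libraries, whereas the hepatocyte groups overlapped. The interaction was 1.34 ± 0.13 (log2 ± SE, edgeR adjusted p = 7.9e-05), from a rise of 1.52 ± 0.07 in BMDM (adjusted p = 1.6e-10) and a change of 0.22 ± 0.07 in hepatocytes (adjusted p = 0.12).

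Srebf1 (chromosome 11, 60199089 to 60222581), whose product drives fatty acid synthesis, had 179, 193 and 229 CPM in Sari_BMDM and 108, 105 and 116 CPM in Veh_BMDM. Its levels were 78.6, 84.5 and 96.6 CPM in Sari_Hep and 109, 91.2 and 101 CPM in Veh_Hep. The macrophage groups stood apart and the hepatocyte groups overlapped, and the interaction was 1.08 ± 0.13 (adjusted p = 0.00048).

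Eepd1, which is known to help hold Abca1 in the membrane and was not on the list, had an interaction of 1.43 ± 0.09 (adjusted p = 2.5e-08). It stood at 163, 172 and 165 CPM in Sari_BMDM and 67.5, 68.1 and 77.4 CPM in Veh_BMDM, against 50.8, 46.3 and 51.5 CPM in Sari_Hep and 56.9, 56.9 and 56.5 CPM in Veh_Hep. The listed target Pltp, which moves phospholipid between lipoproteins, had 1440, 1450 and 1210 CPM in Sari_BMDM and 602, 646 and 704 CPM in Veh_BMDM, and an interaction of 1.20 ± 0.10 (adjusted p = 3e-06). Its hepatocyte level was low throughout, at 11.6 to 11.8 CPM with saringosterol and 12.3 to 13.5 CPM with vehicle.

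Apoe and Apoc1, listed apolipoproteins, had positive interactions at very unlike levels. Apoe, the main apolipoprotein that macrophages secrete, averaged 23500 CPM in Sari_BMDM and 18200 CPM in Veh_BMDM, and 5100 CPM in Sari_Hep and 5650 CPM in Veh_Hep, with an interaction of 0.52 ± 0.09 (adjusted p = 0.0018). Its neighbour Apoc1 had 2.83, 2.26 and 2.16 CPM in Sari_BMDM and 0.872, 0.932 and 0.927 CPM in Veh_BMDM, while hepatocytes held 524 to 587 CPM with saringosterol and 531 to 559 CPM with vehicle. The interaction of Apoc1 was 1.33 ± 0.15 (adjusted p = 4.8e-05). Lpcat3, which builds polyunsaturated phospholipids, had an interaction of 0.66 ± 0.10 (adjusted p = 0.00059). Nr1h3, which encodes LXR alpha itself, had 0.58 ± 0.13 (adjusted p = 0.018), and this call was lost (adjusted p at most 0.054) without Sari_Hep replicate 1 or 2, Veh_BMDM replicate 2 or Veh_Hep replicate 1.

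For 2 targets the hepatocyte level was too low to compare responses. Abcg1, which exports cholesterol to mature lipoproteins, had 920, 842 and 885 CPM in Sari_BMDM and 463, 467 and 445 CPM in Veh_BMDM, but only 0.0555 to 0.21 CPM in Sari_Hep and 0.0911 to 0.139 CPM in Veh_Hep, near the 3-count floor. Mylip, a sterol-induced ubiquitin ligase, had 171, 171 and 163 CPM in Sari_BMDM and 89.5, 90.1 and 90.7 CPM in Veh_BMDM, against 0.105 to 0.21 CPM in Sari_Hep and 0.0431 to 0.137 CPM in Veh_Hep. Both rose in BMDM (0.94 ± 0.06 and 0.90 ± 0.05, adjusted p = 1.6e-09 each), and neither interaction was called (adjusted p = 0.41 and 0.96).

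**Figure D2:**
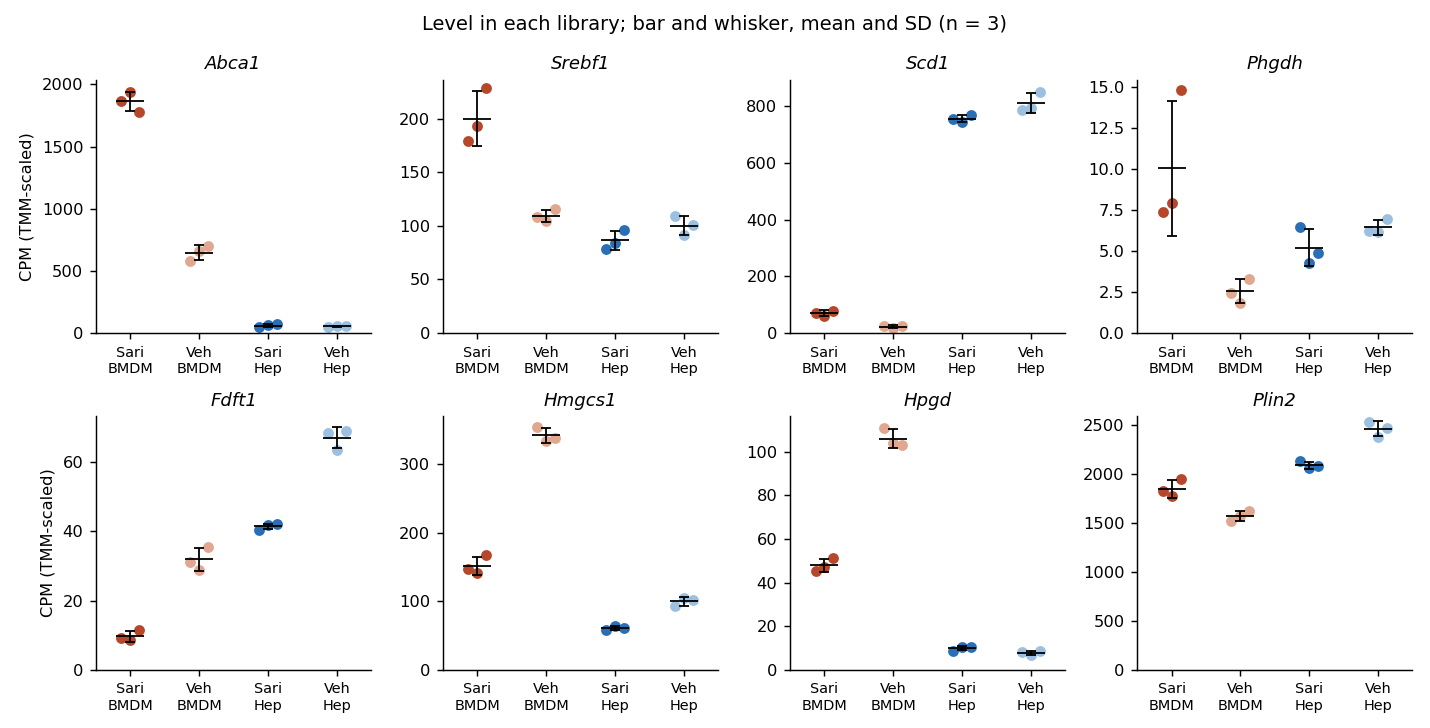
TMM-scaled CPM of 8 genes in each of the 12 libraries, with the mean and SD of each group (n = 3), on linear axes that start at 0. Abca1, Srebf1, Scd1 and Phgdh are higher in Sari_BMDM than in Veh_BMDM without a matching rise in hepatocytes; Fdft1 and Hmgcs1 are lower with saringosterol in both cell types; Plin2 is higher in Sari_BMDM than in Veh_BMDM and lower in Sari_Hep than in Veh_Hep.

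Cholesterol synthesis genes fell in both cell types, and several fell further in BMDM. In BMDM 19 of 21 genes fell (5.12% of all genes did), with a median log2 change of -1.14. In hepatocytes 14 of 21 fell (1.02% of all genes did), with a median of -0.42. The 14 genes that fell in hepatocytes also fell in BMDM, and each of the 14 had the larger estimated fall in BMDM. The interaction was called negative for 6 of 21 genes and positive for 0, beside 2.82% and 6.04% of all genes tested in both, with a list median of -0.46. Without Sari_BMDM replicate 3 the count was 13 of 21 and the median -0.82 (3.16% of all genes were called negative in that fit). The summed level of the list was 661, 679 and 867 CPM in Sari_BMDM and 1490, 1390 and 1530 CPM in Veh_BMDM, against 883, 892 and 895 CPM in Sari_Hep and 1210, 1250 and 1240 CPM in Veh_Hep.

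The first committed step responded in both cells. Hmgcs1 (chromosome 13, 119690379 to 119708260), which makes HMG-CoA and whose promoter window is printed above, had 147, 141 and 167 CPM in Sari_BMDM and 355, 334 and 339 CPM in Veh_BMDM. Hepatocytes held 57.8, 64.3 and 60.4 CPM with saringosterol and 92.4, 105 and 102 CPM with vehicle. No library of a treated group reached its vehicle group in either cell type. The fall was 1.18 on the log2 scale in BMDM (SE 0.07) and 0.68 in hepatocytes (SE 0.06), and the difference, -0.46 ± 0.10, was called (adjusted p = 0.0078).

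The steps that commit isoprenoids to sterol showed the largest called differences. Fdft1 (chromosome 14, 63145150 to 63179578), which makes squalene, had 9.14, 8.49 and 11.5 CPM in Sari_BMDM and 31.2, 28.9 and 35.6 CPM in Veh_BMDM. In hepatocytes it had 40.5, 41.7 and 42 CPM with saringosterol and 68.5, 63.6 and 69.1 CPM with vehicle. Both cell types separated without overlap, and the interaction was -1.02 ± 0.14 (adjusted p = 0.00031) and called in all 12 fits that left out a library. Sqle, which oxidises squalene, had 18.3, 25.7 and 40.8 CPM in Sari_BMDM and 98.3, 92.2 and 105 CPM in Veh_BMDM, against 107, 112 and 117 CPM in Sari_Hep and 152, 161 and 148 CPM in Veh_Hep. Its interaction of -1.34 ± 0.32 only just passed (adjusted p = 0.043). Of the fits that left out a library, the call was kept without Sari_BMDM replicate 1 or 3, and it was lost without each of the other 10 (adjusted p at most 0.11).

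Among the later steps Tm7sf2, a sterol reductase, had 6.24, 6.29 and 7.32 CPM in Sari_BMDM and 13.6, 15.4 and 17.7 CPM in Veh_BMDM, and its hepatocyte change of -0.23 ± 0.08 was not called. Its interaction was -0.97 ± 0.16 (adjusted p = 0.0014). Msmo1, which removes methyl groups from the sterol ring, had an interaction of -0.77 ± 0.13 (adjusted p = 0.0026), and Hsd17b7, which acts with it, -0.91 ± 0.18 (adjusted p = 0.0054). Both genes fell in both cell types. The genes of the list differed widely in how far the cells parted, as the plot of the pathway in step order shows.

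For 2 further enzymes replicate 3 of Sari_BMDM decided the call. Sc5d, a sterol desaturase, had an interaction of -0.94 (adjusted p = 0.069) with that library and -1.29 (adjusted p = 7.1e-09) without it. Cyp51, the lanosterol demethylase, had -0.75 (adjusted p = 0.11) with it and -0.99 (adjusted p = 0.00077) without it.

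For other members no difference between the cells was called. Idi1, the isomerase of the isoprenoid branch, had 6.09, 6.58 and 11.3 CPM in Sari_BMDM and 24.3, 24.5 and 25.6 CPM in Veh_BMDM, against 5.21, 6.03 and 5.47 CPM in Sari_Hep and 14.1, 17.1 and 13.8 CPM in Veh_Hep. Its interaction was -0.20 ± 0.25 (adjusted p = 0.68), which does not show equal responses. Fdps, which makes farnesyl diphosphate, had an interaction of -0.23 ± 0.40 (adjusted p = 0.80), and Lss, which closes the sterol rings, -0.11 ± 0.16 (adjusted p = 0.76). Lbr was the member that was called in neither cell type with an interaction above 0 (0.16 ± 0.10, adjusted p = 0.36).

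**Figure D3:**
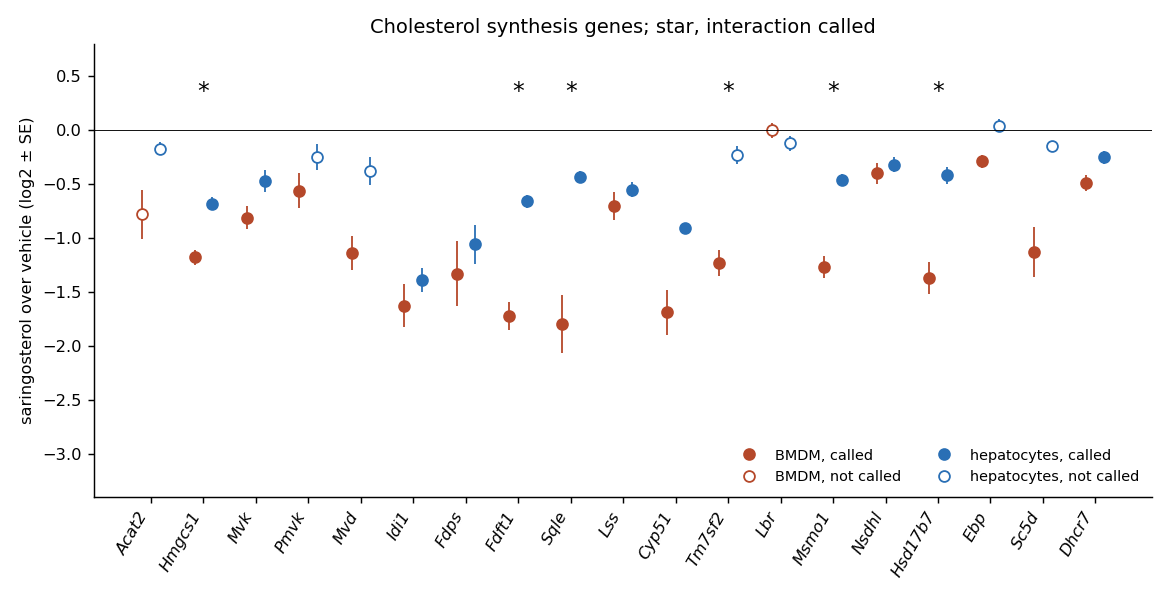
Log2 change with saringosterol over vehicle, with its SE, for 19 of the 21 cholesterol synthesis genes in pathway order, BMDM left of hepatocytes within each gene. Filled points passed the test within the cell type and stars mark the 6 genes with a called interaction; the squalene genes Fdft1 and Sqle fell furthest apart among the starred genes, while Idi1 and Fdps lay close together.

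Sterol uptake and SREBP control showed no called difference with all libraries. Of 8 listed genes 0 passed in either direction by edgeR, beside 6.04% of all genes called positive and 2.82% negative. A list this short can hold no call at such shares. DESeq2 also called 0 of 8, 1 gene had an unadjusted p under 0.05, and the list median was 0.09. Without Sari_BMDM replicate 3, 3 of 8 were called lower (3.16% of all genes in that fit). Within BMDM 2 of 8 fell and 0 rose (5.12% and 5.53% of all genes). In hepatocytes 5 of 9 fell and 0 rose (1.02% and 0.888% of all genes). Insig1, which holds SREBP in the endoplasmic reticulum, had 36.6, 36.8 and 57.3 CPM in Sari_BMDM against 68.1, 64 and 80.8 CPM in Veh_BMDM (-0.71 ± 0.19, adjusted p = 0.06). In hepatocytes it had 36.4, 37 and 37.6 CPM with saringosterol and 74.7, 76.5 and 77.8 CPM with vehicle, and fell by 1.01 ± 0.05 (adjusted p = 2.2e-13). Its interaction was 0.34 ± 0.21 (adjusted p = 0.38). Without Sari_BMDM replicate 3 its fall in BMDM was called (-0.96, adjusted p = 4.4e-09), and the interaction was 0.08 (adjusted p = 0.77). Srebf2 fell in both cell types, by 0.84 ± 0.12 in BMDM and 0.56 ± 0.06 in hepatocytes.

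A minority of fatty acid synthesis genes differed between the cells. Of 15 genes tested in both, 5 had a positive call and 0 a negative one (6.04% and 2.82% of all genes), with a list median of 0.17. Without Sari_BMDM replicate 3 the counts were 6 and 2 (3.4% and 3.16% of all genes in that fit). In BMDM 4 of 15 rose and 4 fell (5.53% and 5.12% of all genes). In hepatocytes 7 of 17 fell and 0 rose (1.02% and 0.888% of all genes). Scd1 (chromosome 19, 44394455 to 44407879), the desaturase that makes oleate, had 70.7, 58.7 and 78.7 CPM in Sari_BMDM and 25.2, 18.2 and 25.6 CPM in Veh_BMDM. In hepatocytes it had 756, 742 and 768 CPM with saringosterol and 785, 794 and 851 CPM with vehicle, and did not pass the test (-0.07 ± 0.05, adjusted p = 0.54). The interaction was 1.69 ± 0.17 (adjusted p = 0.00048).

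Scd2, the related desaturase that macrophages mainly use, had 1030, 1020 and 1410 CPM in Sari_BMDM and 531, 479 and 563 CPM in Veh_BMDM, and 1.78 to 2.17 CPM in Sari_Hep against 2.35 to 2.6 CPM in Veh_Hep. Its interaction of 1.46 ± 0.22 (adjusted p = 0.0034) lost its call in the voom fit alone (adjusted p = 0.20). The counting of reads shared by these close relatives is not given in the sources used here. Mid1ip1, an activator of acetyl-CoA carboxylase, had an interaction of 0.57 ± 0.11 (adjusted p = 0.0055). Acaca, that carboxylase, had 0.69 ± 0.17 (adjusted p = 0.019), which lost its call (adjusted p at most 0.065) without Sari_Hep replicate 1 or 2, Veh_BMDM replicate 2 or Veh_Hep replicate 1 or 3.

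Fasn (chromosome 11, 120805846 to 120824547), the fatty acid synthase, had 86.4, 99.6 and 155 CPM in Sari_BMDM and 70.2, 69.2 and 91.4 CPM in Veh_BMDM, against 39.8, 39.8 and 45.6 CPM in Sari_Hep and 63.8, 59.4 and 63.5 CPM in Veh_Hep. The macrophage groups overlapped, and the hepatocyte groups stood apart with saringosterol lower (-0.54 ± 0.06, adjusted p = 2.5e-06). The interaction of 1.14 ± 0.29 missed the threshold (adjusted p = 0.052), and without Sari_BMDM replicate 3 it was 0.83 (adjusted p = 0.0013). Fads1, which makes polyunsaturated fatty acids, fell in both cell types and less in BMDM, with 158, 152 and 169 CPM in Sari_BMDM and 176, 179 and 185 CPM in Veh_BMDM, against 115, 113 and 123 CPM in Sari_Hep and 177, 166 and 174 CPM in Veh_Hep. Its interaction was 0.39 ± 0.08 (adjusted p = 0.007). Fads2, the other desaturase of that pathway, fell in both cell types, with an interaction of -0.57 (adjusted p = 0.20) and of -0.86 (adjusted p = 0.00089) without Sari_BMDM replicate 3.

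Lipid storage genes held a reversal between the cells. Plin2 (chromosome 4, 86648386 to 86670060), which coats lipid droplets, had 1820, 1770 and 1950 CPM in Sari_BMDM and 1520, 1570 and 1620 CPM in Veh_BMDM. In hepatocytes it had 2130, 2060 and 2080 CPM with saringosterol and 2530, 2380 and 2470 CPM with vehicle. Neither pair of groups overlapped, and the directions were opposite, with 0.23 ± 0.06 in BMDM (adjusted p = 0.012) and -0.20 ± 0.04 in hepatocytes (adjusted p = 0.0047). The interaction of Plin2 was 0.47 ± 0.07 (adjusted p = 0.00088). Soat2, which esterifies cholesterol, had 0.881, 0.667 and 1.9 CPM in Sari_BMDM and 0.21, 0.138 and 0.364 CPM in Veh_BMDM, against 10.5 to 13.9 CPM in Sari_Hep and 11.6 to 12.2 CPM in Veh_Hep. Its interaction was 2.21 ± 0.48 (adjusted p = 0.012) and lost its call (adjusted p at most 0.065) without Veh_BMDM replicate 1 or 2. Plin2 and Soat2 were the 2 calls among 11 lipid droplet and lipase genes, beside 6.04% of all genes called positive. Slc27a1, a fatty acid transporter, also rose in BMDM (135, 132 and 149 CPM against 102, 107 and 113 CPM in Veh_BMDM) and fell in hepatocytes (22.7, 23.7 and 27 CPM against 32.1, 29.2 and 30.3 CPM in Veh_Hep), with an interaction of 0.69 ± 0.10 (adjusted p = 0.00071). Of 13 fatty acid oxidation genes and PPAR alpha targets 2 were called positive (6.04% of all genes), Plin2 and Hadhb (0.42 ± 0.08, adjusted p = 0.0053), a subunit of the mitochondrial trifunctional protein.

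**Figure D4:**
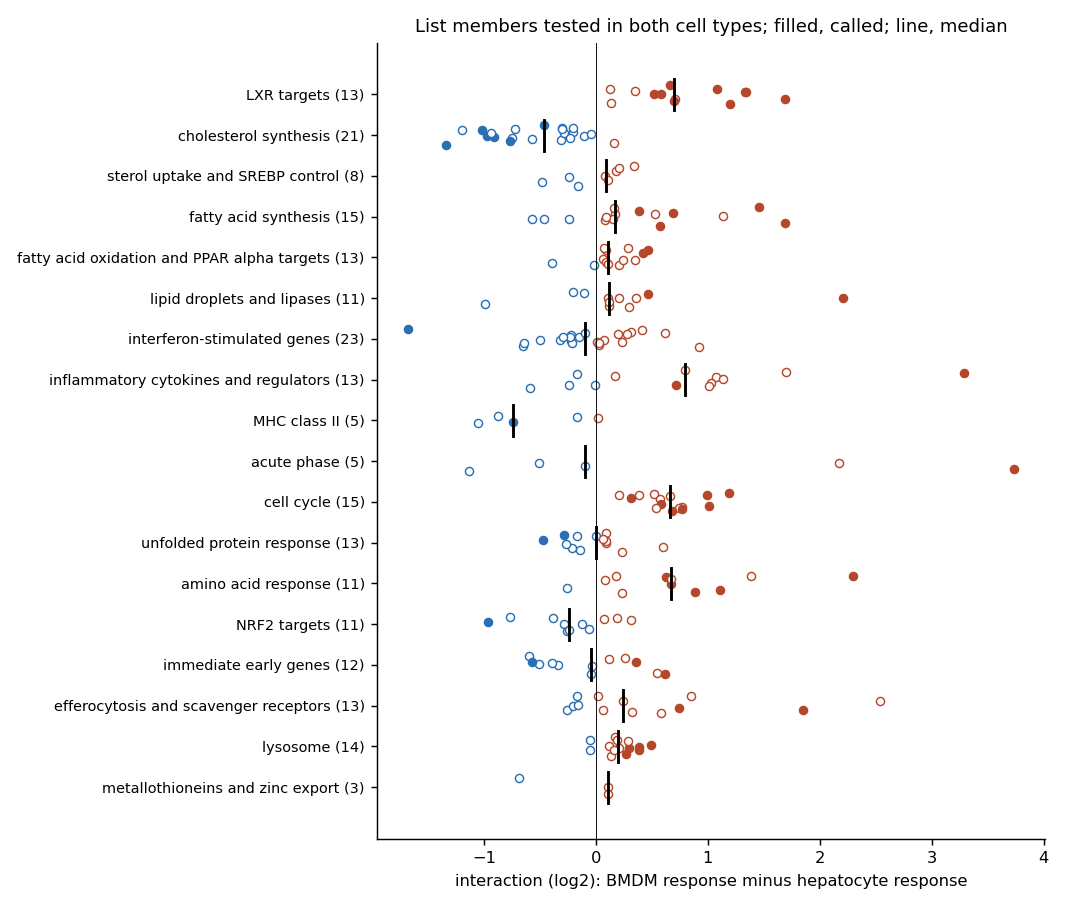
Interaction (BMDM response minus hepatocyte response, log2) of the members tested in both cell types, for lists with at least 3 such members, with the number of members in brackets, filled points for called genes and a line at each list's median. The LXR, cell cycle and amino acid lists lie almost wholly to the right of 0, and the cholesterol synthesis list almost wholly to the left.

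Genes of serine synthesis and amino acid supply leaned towards BMDM, where 5 of 11 rose and 1 fell (5.53% and 5.12% of all genes). In hepatocytes 0 rose and 1 fell (0.888% and 1.02% of all genes). Of these 11 genes 5 had a positive call and 0 a negative one (6.04% and 2.82% of all genes), with a median interaction of 0.67. The positive count was 5 without Sari_BMDM replicate 3 as well (3.4% of all genes in that fit). Phgdh (chromosome 3, 98313170 to 98339990), the entry enzyme of serine synthesis, had the largest positive interaction of the genes taken by size alone. It had 7.41, 7.91 and 14.8 CPM in Sari_BMDM and 2.44, 1.86 and 3.31 CPM in Veh_BMDM, against 6.49, 4.28 and 4.88 CPM in Sari_Hep and 6.21, 6.17 and 6.96 CPM in Veh_Hep. The macrophage groups stood apart, and the interaction was 2.30 ± 0.37 (adjusted p = 0.0027).

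Atf4, the transcription factor that drives these genes when amino acids run short, had 114, 104 and 117 CPM in Sari_BMDM and 77.6, 72 and 74.5 CPM in Veh_BMDM, against 109, 108 and 111 CPM in Sari_Hep and 112, 116 and 111 CPM in Veh_Hep. Its interaction was 0.63 ± 0.08 (adjusted p = 0.00022). Trib3, a pseudokinase induced by Atf4, had 0.89 ± 0.17 (adjusted p = 0.0061), and Shmt2, which makes glycine from serine in mitochondria, 0.67 ± 0.11 (adjusted p = 0.002). Asns, asparagine synthetase, had 39.3, 46.8 and 72.4 CPM in Sari_BMDM and 23.3, 24.9 and 24.9 CPM in Veh_BMDM, and 109 to 113 CPM in Sari_Hep against 106 to 114 CPM in Veh_Hep. Its interaction of 1.11 ± 0.25 (adjusted p = 0.033) was kept without Sari_BMDM replicate 1 or 3 and lost without each other library (adjusted p at most 0.12). Psat1, the next enzyme of serine synthesis, did not pass (0.18 ± 0.12, adjusted p = 0.41). Of 13 genes of the unfolded protein response, a neighbouring stress pathway, 0 were called positive and 2 negative (6.04% and 2.82% of all genes), Herpud1 (-0.47 ± 0.08, adjusted p = 0.0027) and Manf (-0.28 ± 0.08, adjusted p = 0.038). The call of Manf was kept without Sari_BMDM replicate 3 or Veh_BMDM replicate 3 and lost without each other library (adjusted p at most 0.12).

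Replication genes leaned towards BMDM. Of 15 cell cycle genes tested in both cell types 7 had a positive call and 0 a negative one (6.04% and 2.82% of all genes), with a median interaction of 0.66, and all 15 estimates were above 0. In BMDM 11 of 19 rose, beside 5.53% of all genes, and in hepatocytes 1 of 15 fell, beside 1.02%. Mcm2, a subunit of the helicase that opens replication origins, had 24.3, 31.7 and 33.6 CPM in Sari_BMDM and 15.2, 19 and 18.6 CPM in Veh_BMDM, against 23.5, 23.8 and 22.4 CPM in Sari_Hep and 27.4, 25 and 29.2 CPM in Veh_Hep. The groups did not overlap in either cell type, with treated macrophages higher and treated hepatocytes lower, and the interaction was 0.99 ± 0.16 (adjusted p = 0.0012). Mcm6, of the same helicase, rose in BMDM (0.37 ± 0.09, adjusted p = 0.014) and fell in hepatocytes (-0.17 ± 0.05, adjusted p = 0.04), with an interaction of 0.58 ± 0.12 (adjusted p = 0.0088). Mcm5 had 0.77 ± 0.18 (adjusted p = 0.015), and the calls of Mcm5 and Mcm6 were lost without Veh_BMDM replicate 1 (adjusted p = 0.056 and 0.055). Rrm2, which makes deoxynucleotides, and Top2a, which untangles DNA, had interactions of 1.01 ± 0.26 (adjusted p = 0.029) and 1.19 ± 0.32 (adjusted p = 0.038), at 1.4 to 2.38 and 0.419 to 0.86 CPM in Sari_Hep and 2.01 to 2.55 and 0.69 to 1.09 CPM in Veh_Hep. Each was called in 9 of 19 settings, with an adjusted p of at most 0.089 and 0.12. The count of 7 fell to 2 without Veh_BMDM replicate 1 and to 4 without Sari_BMDM replicate 2, Sari_Hep replicate 2, Veh_BMDM replicate 2 or 3 or Veh_Hep replicate 3.

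Inflammatory genes gave few called differences between the cell types, though several rose within BMDM. Of 13 genes tested in both cell types 2 were called positive and 0 negative (6.04% and 2.82% of all genes). Without Sari_BMDM replicate 3 the counts were 5 and 1 (3.4% and 3.16% of all genes in that fit). The list median was 0.80 with that library and -0.15 without it. Within BMDM 7 of 19 listed genes rose and 0 fell (5.53% and 5.12% of all genes). Without Sari_BMDM replicate 3, 9 rose and 2 fell there (4.45% and 6.02% of all genes). In hepatocytes 2 of 13 rose and 0 fell (0.888% and 1.02% of all genes). Ccl7, a chemokine that draws monocytes, had 0.991, 1.16 and 2.74 CPM in Sari_BMDM and 0.271, 0.0345 and 0.0662 CPM in Veh_BMDM, where the last 2 libraries were under the 3-count floor. Hepatocytes held 4.89 to 6.93 CPM with saringosterol and 4.21 to 5.56 CPM with vehicle. The interaction was 3.29 ± 0.64 (adjusted p = 0.008). Tnfaip3, a brake on NF-kappaB signalling, had 106 CPM in each of the 3 Sari_BMDM libraries and 65.1, 66.1 and 72 CPM in Veh_BMDM, against 32.4, 34.7 and 36.9 CPM in Sari_Hep and 35, 37.6 and 36.8 CPM in Veh_Hep. Its interaction was 0.72 ± 0.09 (adjusted p = 0.00024).

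Ccl2, a monocyte chemokine, rose in both cell types. It had 2.72, 4.03 and 9.71 CPM in Sari_BMDM and 1.62, 1.24 and 1.62 CPM in Veh_BMDM, against 292, 237 and 263 CPM in Sari_Hep and 229, 240 and 223 CPM in Veh_Hep. Its interaction was 1.70 ± 0.57 (adjusted p = 0.12), and 0.98 (adjusted p = 0.0058) without Sari_BMDM replicate 3. Il1a, an alarm cytokine, could be tested in BMDM only, where it had 6.24, 7.62 and 14.1 CPM with saringosterol and 1.68, 0.449 and 0.927 CPM with vehicle (3.16 ± 0.48, adjusted p = 0.0064). Il1b, its relative, had 0.367, 0.406 and 6.2 CPM in Sari_BMDM and 3.19, 2.62 and 1.79 CPM in Veh_BMDM and was not called (-0.11 ± 1.02, adjusted p = 0.96). Without Sari_BMDM replicate 3 Il1b fell in BMDM (-2.71, adjusted p = 1.1e-05).

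Lbp (chromosome 2, 158306493 to 158332852), the secreted protein that presents bacterial lipopolysaccharide to immune cells and is mainly known from the liver, had the largest positive interaction among the listed genes. It had 3.56, 3.19 and 3.17 CPM in Sari_BMDM and 0.241, 0 and 0.397 CPM in Veh_BMDM, against 16.3, 14.8 and 15 CPM in Sari_Hep and 13.5, 14.1 and 13.4 CPM in Veh_Hep. All treated macrophage libraries lay well above all vehicle libraries, and treated macrophages stayed below the hepatocyte level. The interaction was 3.74 ± 0.39 (adjusted p = 3e-05). Lbp was the 1 positive call among 5 acute phase genes tested in both cell types, and 0 were negative (6.04% and 2.82% of all genes). Without Sari_BMDM replicate 3, 1 was called positive and 1 negative (3.4% and 3.16% of all genes in that fit). The list median was -0.10 with that library and -1.56 without it. Alb was at 0 in all Sari_BMDM libraries but not in all Veh_BMDM libraries.

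In BMDM 3 of 15 engulfment and scavenger genes rose and 3 fell, and 3 of 15 lysosomal genes rose and 0 fell, beside 5.53% and 5.12% of all genes. Without Sari_BMDM replicate 3 the engulfment and scavenger counts were 4 and 5, beside 4.45% and 6.02% of all genes. For the interaction, 6.04% of all genes tested in both cell types were called positive and 2.82% negative. Cd5l, a secreted macrophage protein known as an LXR target, had 342, 364 and 447 CPM in Sari_BMDM and 113, 120 and 129 CPM in Veh_BMDM, and 0.666 to 1.35 CPM in Sari_Hep against 0.733 to 1.58 CPM in Veh_Hep. Its interaction was 1.85 ± 0.39 (adjusted p = 0.024), lost (adjusted p at most 0.075) without Sari_Hep replicate 2, Veh_BMDM replicate 1 or 2 or Veh_Hep replicate 2 or 3. Cd5l makes up most of the Kupffer cell marker list, which summed to 370 to 521 CPM in Sari_BMDM and 149 to 159 CPM in Veh_BMDM, while Clec4f, the marker that defines Kupffer cells, was at 0 in all 6 BMDM libraries. Mertk, the receptor for dying cells, had 301, 312 and 273 CPM in Sari_BMDM and 167, 190 and 192 CPM in Veh_BMDM, and 2.16 to 2.41 CPM in Sari_Hep against 2.09 to 2.73 CPM in Veh_Hep. Its interaction was 0.74 ± 0.14 (adjusted p = 0.0045) and lost its call in the voom fit (adjusted p = 0.071). Cd5l and Mertk were the 2 calls among 13 engulfment and scavenger genes. Of 14 lysosomal genes 5 were called positive with interactions under 0.5, among them Gpnmb (0.39 ± 0.08, adjusted p = 0.0078), which was not called in BMDM (0.14 ± 0.06, adjusted p = 0.15) and fell in hepatocytes (-0.21 ± 0.05, adjusted p = 0.02), and this count was 1 without Veh_BMDM replicate 1 or 2 and 3 without Sari_Hep replicate 2.

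MHC class II genes, which present antigen to T cells, fell in BMDM (7 of 8, beside 5.12% of all genes), and hepatocytes held too little of them for a firm comparison. H2-DMa, which loads peptides onto class II molecules, had 128, 125 and 144 CPM in Sari_BMDM and 218, 203 and 220 CPM in Veh_BMDM, against 0.985 to 1.58 CPM in Sari_Hep and 0.992 to 1.34 CPM in Veh_Hep. Its interaction of -0.74 ± 0.19 (adjusted p = 0.027) was the 1 call among 5 genes (2.82% of all genes were called negative), and it was lost (adjusted p at most 0.15) without Sari_BMDM replicate 2, Sari_Hep replicate 1, Veh_BMDM replicate 1 or Veh_Hep replicate 1 or 3, and in the voom fit. Without Sari_BMDM replicate 3, 3 of the 5 were called lower (3.16% of all genes). The lists of interest that gave no or few calls were immediate early genes (2 positive and 1 negative of 12, beside 6.04% and 2.82% of all genes), NRF2 targets (0 and 1 of 11, the 1 being Nqo1 at -0.96 ± 0.22, adjusted p = 0.014, and 0.051 without Sari_Hep replicate 2) and metallothioneins (0 of 3 by edgeR and by DESeq2, with 0 at an unadjusted p under 0.05).

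Interferon genes were set by a single library. In BMDM alone edgeR called 0 of 24 with all libraries (2 at an unadjusted p under 0.05, and 2 called by DESeq2), and 23 fell without Sari_BMDM replicate 3 (6.02% of all genes fell and 4.45% rose in that fit). For the interaction, with all 12 libraries 1 of 23 genes tested in both cell types was called lower (2.82% of all genes). Without Sari_BMDM replicate 3, 19 of 23 were (3.16% of all genes in that fit). The list median was -0.10 and -1.47 in turn. The 24 listed genes summed to 393, 458 and 1950 CPM in replicates 1, 2 and 3 of Sari_BMDM and to 1160, 793 and 1050 CPM in Veh_BMDM. In hepatocytes they summed to 3340, 3580 and 3770 CPM with saringosterol and 3810, 3900 and 3650 CPM with vehicle. Replicates 1 and 2 of Sari_BMDM lay below every vehicle library and replicate 3 above every one, and 24 of 24 genes were higher in replicate 3 than in both other replicates. In hepatocytes the groups overlapped.

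Irf7 (chromosome 7, 141262706 to 141266481), the regulator that amplifies interferon signalling, had 15, 19.7 and 220 CPM in Sari_BMDM and 61.2, 33.7 and 53.3 CPM in Veh_BMDM, against 301, 308 and 340 CPM in Sari_Hep and 351, 360 and 331 CPM in Veh_Hep. Its interaction was 0.92 ± 1.22 (adjusted p = 0.72), and -1.38 (adjusted p = 0.042) without replicate 3. Ifit1, which binds viral RNA, had 4.81, 5.3 and 35 CPM in Sari_BMDM and 32.5, 18.5 and 30 CPM in Veh_BMDM, and an interaction of -0.65 ± 0.89 (adjusted p = 0.73) with replicate 3 and -2.26 (adjusted p = 0.0079) without it. Cxcl10, the interferon-induced chemokine, was the 1 gene called with all libraries. It had 1.98, 1.83 and 4.84 CPM in Sari_BMDM and 10.5, 5.87 and 8.12 CPM in Veh_BMDM, and 163, 171 and 177 CPM in Sari_Hep against 158, 141 and 148 CPM in Veh_Hep. Its interaction was -1.68 ± 0.42 (adjusted p = 0.049), and among the fits without a library the call was kept only without Sari_BMDM replicate 3 (adjusted p at most 0.13 in the others).

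The same library was high or low in genes of other lists, as given above for Sqle and Il1b. Saa3, an acute phase protein, had 0.55, 0.435 and 96.3 CPM in Sari_BMDM and 13.5, 0.518 and 5.7 CPM in Veh_BMDM. Gclm, a glutathione synthesis gene, had 329, 290 and 175 CPM in Sari_BMDM and 401, 434 and 441 CPM in Veh_BMDM. The median interaction of the LXR targets was 0.70 with and without it.

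**Figure D5:**
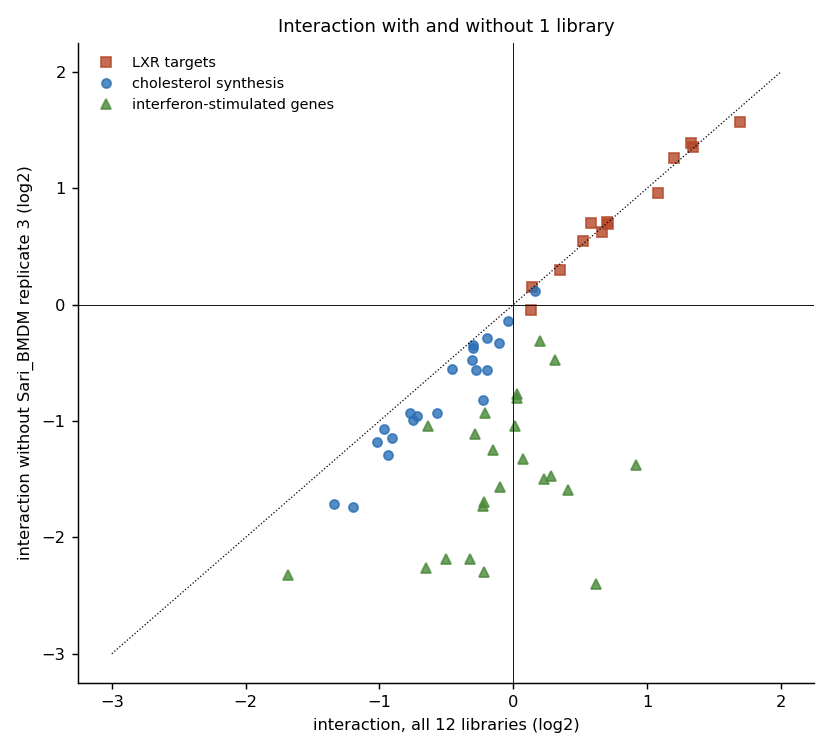
Interaction (log2) with all 12 libraries (horizontal) and without Sari_BMDM replicate 3 (vertical) for members of 3 lists tested in both cell types, with the dotted line marking equality. LXR targets lie close to the line, cholesterol synthesis genes somewhat below it and interferon genes far below it, with list medians without the library of 0.70, -0.82 and -1.47.

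Among the genes taken by size, several of the largest negative interactions outside the lists were falls in BMDM with no call in hepatocytes. Myl12b and Rpl18-ps1, also among them and given below, rose in hepatocytes as well (0.77 and 0.73 on the log2 scale). Hpgd (chromosome 8, 56294585 to 56321043), which inactivates prostaglandins, had 45.4, 47.3 and 51.2 CPM in Sari_BMDM and 111, 104 and 103 CPM in Veh_BMDM, against 8.76, 10.6 and 10.4 CPM in Sari_Hep and 8.17, 6.79 and 8.5 CPM in Veh_Hep. The interaction was -1.49 ± 0.13 (adjusted p = 3e-06). Aldoc, a glycolytic aldolase, had 4.59, 7.57 and 8.85 CPM in Sari_BMDM and 26, 20 and 27.4 CPM in Veh_BMDM (interaction -1.61 ± 0.25, adjusted p = 0.0018). The paired membrane genes Tmem176a and Tmem176b, known from antigen-presenting cells, had interactions of -1.52 ± 0.22 (adjusted p = 0.0045) and -1.45 ± 0.24 (adjusted p = 0.01), with 25.3 to 38.6 and 53.1 to 89.7 CPM in Sari_BMDM and 65.5 to 87.8 and 155 to 197 CPM in Veh_BMDM. Fn1, the matrix protein fibronectin, had 27.5, 35.2 and 35.7 CPM in Sari_BMDM and 73.6, 95 and 118 CPM in Veh_BMDM, while hepatocytes held 1740 to 2140 CPM with saringosterol and 2070 to 2160 CPM with vehicle (interaction -1.39 ± 0.24, adjusted p = 0.012). The macrophage groups of all 5 genes stood apart. In hepatocytes the groups of Hpgd and Tmem176a also stood apart, with saringosterol higher (0.38 and 0.19 on the log2 scale). Those of Aldoc did so with saringosterol lower (-0.15), and none of these hepatocyte changes was called.

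Among the largest positive interactions, Il18bp, which neutralises the cytokine IL-18, had 36, 38.6 and 73.6 CPM in Sari_BMDM and 12.7, 9.6 and 10.7 CPM in Veh_BMDM, against 27.1, 26 and 29.3 CPM in Sari_Hep and 27.6, 30.8 and 22.3 CPM in Veh_Hep. Its interaction of 2.13 ± 0.38 (adjusted p = 0.015) was lost without Veh_BMDM replicate 2 (adjusted p = 0.055). Hal, which breaks down histidine, rose in BMDM (72.2, 99 and 152 CPM against 36.2, 29.5 and 29.6 CPM in Veh_BMDM) and fell in hepatocytes (86.7, 85.9 and 88.3 CPM against 118, 97.3 and 115 CPM in Veh_Hep), with an interaction of 2.10 ± 0.34 (adjusted p = 0.011, and 0.057 under the replicate block). Tgm2, a protein crosslinking enzyme that macrophages use in engulfment, had 41.6, 48.6 and 61.9 CPM in Sari_BMDM and 17.4, 17.9 and 18.6 CPM in Veh_BMDM (interaction 1.49 ± 0.16, adjusted p = 0.00048). Gdf15, a stress cytokine, had 44.4, 31.6 and 24.8 CPM in Sari_BMDM and 15.6, 14.4 and 13.9 CPM in Veh_BMDM (interaction 1.22 ± 0.23, adjusted p = 0.0094). Plcxd2, a phospholipase-related gene, had an interaction of 1.43 ± 0.15 (adjusted p = 3e-05), at 6.52 to 7.81 CPM in Sari_BMDM and 2.24 to 3.31 CPM in Veh_BMDM. Hepatocyte changes of Tgm2, Gdf15 and Plcxd2 were within 0.04 of 0 on the log2 scale.

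Most of the genes that fell in BMDM and rose in hepatocytes were processed pseudogenes. Of the 13603 genes tested in both cell types, 10739 were protein-coding and 2191 were processed pseudogenes. The 9 genes that rose in BMDM and fell in hepatocytes were all protein-coding, as most tested genes are. Besides Plin2, Slc27a1, Hal and Mcm6 they included Paox, which oxidises polyamines, with 22, 22.2 and 25.4 CPM in Sari_BMDM and 18.3, 18.4 and 18.8 CPM in Veh_BMDM, against 18.5, 17 and 20.3 CPM in Sari_Hep and 28.8, 24.1 and 26.8 CPM in Veh_Hep (interaction 0.84 ± 0.13, adjusted p = 0.0013). Tom1, of endosomal sorting, had an interaction of 0.68 ± 0.11 (adjusted p = 0.0012). Of the 42 genes that fell in BMDM and rose in hepatocytes, 31 were processed pseudogenes, such as the ribosomal copies Rpl32l (-1.27 ± 0.22, adjusted p = 0.0024) and Rpl18-ps1 (-1.41 ± 0.29, adjusted p = 0.0099), and 10 were protein-coding. Myl12b, a myosin light chain, had 6.6, 5.42 and 4.06 CPM in Sari_BMDM and 9.77, 8.08 and 8.02 CPM in Veh_BMDM, against 6.57, 8.03 and 7.02 CPM in Sari_Hep and 4.46, 4.56 and 3.95 CPM in Veh_Hep (interaction -1.43 ± 0.24, adjusted p = 0.0017). Processed pseudogenes are near-identical copies of expressed genes, and how reads matching more than 1 place were handled is not given in the sources used here, so their values are uncertain.

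Processed pseudogenes and mitochondrial genes, classes chosen after their values were seen, moved with this pattern. Of all genes tested in both cell types, 6.04% were called positive and 2.82% negative. Of 2191 processed pseudogenes tested in both cell types 5 were called positive and 142 negative, and of 10739 protein-coding genes 813 and 209 were. Ribosomal protein genes leaned the other way, with 10 of 76 called positive and 1 negative. Processed pseudogenes took 1.079, 1.136 and 1.072% of the counts in Sari_BMDM and 1.513, 1.365 and 1.171% in Veh_BMDM, and 1.482, 1.599 and 1.424% in Sari_Hep against 1.314, 1.257 and 1.334% in Veh_Hep. Genes of the mitochondrial genome took 0.444, 0.394 and 0.358% in Sari_BMDM and 0.625, 0.583 and 0.512% in Veh_BMDM, and 0.842, 0.837 and 0.694% in Sari_Hep against 0.621, 0.696 and 0.626% in Veh_Hep. Treated libraries lay below vehicle in BMDM for both shares, and above it in hepatocytes for processed pseudogenes. The mitochondrial shares overlapped in hepatocytes, where treated replicate 3 (0.694%) lay just below vehicle replicate 2 (0.696%). Of 17 mitochondrial genes 0 were called positive and 11 negative (6.04% and 2.82% of all genes), with a median interaction of -0.92. The ribosomal RNA mt-Rnr1 had 86.1, 70.9 and 86.9 CPM in Sari_BMDM and 251, 198 and 141 CPM in Veh_BMDM, against 390, 450 and 400 CPM in Sari_Hep and 305, 391 and 278 CPM in Veh_Hep (interaction -1.62 ± 0.30, adjusted p = 0.018), a call lost (adjusted p at most 0.054) without Sari_Hep replicate 2 or Veh_Hep replicate 1. What part library composition has in the other negative interactions was not tested.

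Genes that only 1 of the cell types expressed add responses with no counterpart. In BMDM Mmp27, a matrix protease, had 15.5, 17.5 and 19.7 CPM with saringosterol and 5.8, 4.66 and 4.94 CPM with vehicle (1.77 ± 0.14, adjusted p = 1.9e-07), and Osm, a cytokine of the IL-6 family, 6.24, 3.8 and 6.31 CPM against 1.35, 2.28 and 2.55 CPM in Veh_BMDM (1.4 ± 0.24, adjusted p = 0.00099). Adgre4, a macrophage adhesion receptor, had 1.14, 0.783 and 1.73 CPM in Sari_BMDM and 9.11, 5.8 and 9.77 CPM in Veh_BMDM (-2.76 ± 0.26, adjusted p = 1.8e-06). In hepatocytes the major urinary protein genes Mup18 and Mup4 rose, with 6.99, 8.62 and 5.93 CPM and 5.68, 6.73 and 3.6 CPM in Sari_Hep against 1.96, 4.08 and 2.97 CPM and 2.16, 2.28 and 2.6 CPM in Veh_Hep (1.29 ± 0.23 and 1.22 ± 0.21, adjusted p = 0.0072 and 0.0011). The Mup genes are near-identical copies whose reads may be split among them. Mfsd2a, which carries lipids with long unsaturated chains into cells, had 7.13, 6.96 and 8.88 CPM in Sari_Hep and 10.6, 10.9 and 11.6 CPM in Veh_Hep (-0.49 ± 0.11, adjusted p = 0.0097), and Bhmt, which remethylates homocysteine, 3.83, 4.26 and 3.02 CPM against 5.44, 5.76 and 5.39 CPM in Veh_Hep (-0.55 ± 0.14, adjusted p = 0.043).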

How the data were processed

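RNA was extracted with Quick-RNA Miniprep Plus columns and copied from poly(A) tails with a SMARTer Ultra Low kit, per the labels' protocols. Raw counts per gene were deposited by the authors; bcl2fastq, STAR 2.5.1a, Subread featureCounts 1.4.6-p5 and GRCm38 are named in the submitters' processing notes, and no source used here gives the strand setting or annotation release. Repeated lines (168 gene IDs, with identical counts) were kept once. Genes were filtered with filterByExpr, scaled by TMM and tested with edgeR 4.0.16 (quasi-likelihood F test, robust, R 4.3.3), Benjamini-Hochberg adjusted p under 0.05, in 1 fit of the 12 libraries for the interaction and in fits of 9 libraries, which add the 3 libraries of the series' GW compound, within each cell type. Standard errors are the log2 change over the square root of F. Alternatives used DESeq2 1.42.0, limma 3.58.1 voom with quality weights, other scalings, no filter, a replicate block and each library left out; the steps were tested on simulated data.

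Members and lists were chosen with earlier results of these data known. Genes named are the 10 largest positive and negative interactions called with and without Sari_BMDM replicate 3 at 5 CPM or more, up to 4 per opposite pattern, 3 per shared or single-cell-type pattern, up to 5 per list, and a fixed panel; Apoe, Nr1h3, Atf4, Shmt2, Tnfaip3, Mcm6, Idi1, Fdps, Lss, Lbr, Msmo1, Srebf2, Psat1, Saa3, Gclm and others outside it were chosen after their values were seen. Some genes of these lists are counted but not reported here by name.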

Additional observations from a re-analysis of the deposited data

Results flagged for a closer look

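The results below differed between the cell types by the interaction test itself (edgeR, adjusted p under 0.05), and no explanation was weighed. The test called 1255 genes. Among LXR and related lipid genes the interaction (log2, BMDM minus hepatocytes) was 1.34 for Abca1, 1.08 for Srebf1, 1.69 for Scd1, 1.46 for Scd2, 0.66 for Lpcat3, 1.33 for Apoc1, 0.52 for Apoe, 1.20 for Pltp, 0.58 for Nr1h3, 1.43 for Eepd1, 0.69 for Acaca, 0.39 for Fads1, 2.21 for Soat2, 0.47 for Plin2, 0.42 for Hadhb, 0.57 for Mid1ip1 and 0.69 for Slc27a1. Among cholesterol synthesis genes it was -0.46 for Hmgcs1, -1.02 for Fdft1, -1.34 for Sqle, -0.97 for Tm7sf2, -0.77 for Msmo1 and -0.91 for Hsd17b7.

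Among amino acid and replication genes it was 2.30 for Phgdh, 1.11 for Asns, 0.89 for Trib3, 0.63 for Atf4, 0.67 for Shmt2, 1.19 for Top2a, 0.99 for Mcm2, 0.77 for Mcm5, 0.58 for Mcm6 and 1.01 for Rrm2. Among immune and stress genes it was 3.74 for Lbp, 3.29 for Ccl7, 0.72 for Tnfaip3, -1.68 for Cxcl10, -0.74 for H2-DMa, 1.85 for Cd5l, 0.74 for Mertk, 0.39 for Gpnmb, -0.47 for Herpud1, -0.28 for Manf and -0.96 for Nqo1. Among genes taken by size or by opposite direction it was 2.13 for Il18bp, 2.10 for Hal, 1.49 for Tgm2, 1.43 for Plcxd2, 1.22 for Gdf15, 0.84 for Paox, 0.68 for Tom1, -1.61 for Aldoc, -1.52 for Tmem176a, -1.45 for Tmem176b, -1.49 for Hpgd, -1.43 for Myl12b, -1.39 for Fn1, -1.62 for mt-Rnr1, -1.41 for Rpl18-ps1 and -1.27 for Rpl32l.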

How the results depend on the processing

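Of 76 named genes with an interaction value 60 were called, and 41 of these were called in all settings tried. The interaction count was 2305 with DESeq2 (1698 positive) and 1918 with all 27 libraries in the fit (1324 positive), and 468 positive with library totals. In hepatocytes the count was 563 with DESeq2 (248 rose, 315 fell) and 491 without the filter (294 rose). Over all genes tested, same-numbered libraries did not deviate together (r -0.068 to 0.027), and the replicate numbers were not taken as pairs. The labels do not say whether equal numbers pair libraries, and a correlation over all genes cannot decide it. With the replicate block the interaction count was 1191, the BMDM count 1780 and the hepatocyte count 782 (387 rose, 395 fell), and the block gave -0.05 for Irf7. Leaving out 1 library gave 506 to 1615 interaction calls (276 to 1046 positive, 192 to 571 negative), 846 to 1754 in BMDM (403 to 952 rose, 443 to 956 fell) and 86 to 803 in hepatocytes (38 to 418 rose, 42 to 385 fell), with the lowest hepatocyte count without Veh_Hep replicate 3 and the highest without Veh_Hep replicate 2. Signs of uncalled interactions turned for Mylip (-0.39 to 0.54 over the fits without a library, -0.06 without Sari_Hep replicate 3), Fdps (-0.82 to 0.07) and Irf7 (-1.38 to 1.41, and -0.06 with voom). The cause was not tested. Genes near the floor of 3 counts in a cell type limit what the interaction can show.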
